A study of Mus musculus with 48 samples.

Results

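The Schlafen family was followed in RAW264.7 cells, a mouse macrophage line, through 6 genes of the deposited count table, Slfn1, Slfn2, Slfn4, Slfn5, Slfn8 and Slfn9. They were the rows whose symbol matched these names, 6 of 49568 genes, and all 6 were found. Cells were kept for 72 h with PBS, with a peptide (LE, SE or PE, each at 100 µg/ml), with IFN-γ at 5 ng/ml (labelled IFNy), or with IFN-γ and a peptide together (labelled LE+IFNy, SE+IFNy and PE+IFNy). The peptides are synthetic 15-mers that copy the same stretch of the HLA-DR β chain from a lupus risk allele (LE), a rheumatoid arthritis risk allele (SE) and a protective allele (PE), and IFN-γ is a cytokine that activates macrophages. Each group has 6 libraries of polyadenylated RNA, and the values here come from the 24 libraries that the labels name A to X, 3 per group, unless the other 24 are named.

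The study describes its replicates as biological, and the labels do not say which libraries came from separate cultures. The p-values measure the spread between these libraries, and in bulk RNA fewer cells and less RNA per cell cannot be told apart. The letter-labelled libraries held 16.5 to 26.9 mega counts in total. CPM is a gene's count per mega counts of its library. Averaged over 20 known targets of IFN-γ, log2(CPM + 1) was between 6.77 and 7.16 in the 12 libraries labelled with IFN-γ and between 2.43 and 2.53 in the 12 labelled without it, so all 24 went with their label. In the other 24 libraries, labelled HLA1 to HLA24, 12 went against it, and those libraries enter only where they are named. Of 8 macrophage markers, 7 were at 65.9 CPM or more in every letter-labelled library, led by Lyz2 and Cd68, and Mertk reached at most 0.408 CPM. Their sum was between 6463 and 11749 CPM, and 14 markers of other cell types summed to at most 2.35 CPM.

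Schlafen proteins are found in mammals, and their genes lie together in a cluster that has been duplicated many times in rodents. The mouse proteins fall into a short group with Slfn1 and Slfn2, an intermediate group with Slfn4, and a long group with Slfn5, Slfn8 and Slfn9, whose additional part resembles helicases. Slfn1 was first described as a brake on thymocyte growth, Slfn2 keeps T cells and monocytes quiescent and protects tRNA from cleavage, and Slfn4 is a gene of myeloid cells. Several members bind or cut tRNA, and many respond to type I interferon.

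The cluster lies on chromosome 11 (GRCm38). From the centromeric side it runs from Slfn5 (82951349 to 82964840, plus strand) through Slfn9 (82978390 to 82991830, minus), Slfn8 (83002158 to 83020810, minus) and the pseudogene Slfn10-ps to Slfn2 (83065112 to 83070678, plus), Slfn1 (83116849 to 83122670, plus) and Slfn4 (83175186 to 83190216, plus). All 6 members are protein-coding genes in the annotation, and Slfn3 and Slfn14 follow Slfn4. The map of the cluster sets these positions beside the log2 fold changes described further on.

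**Figure D1:**
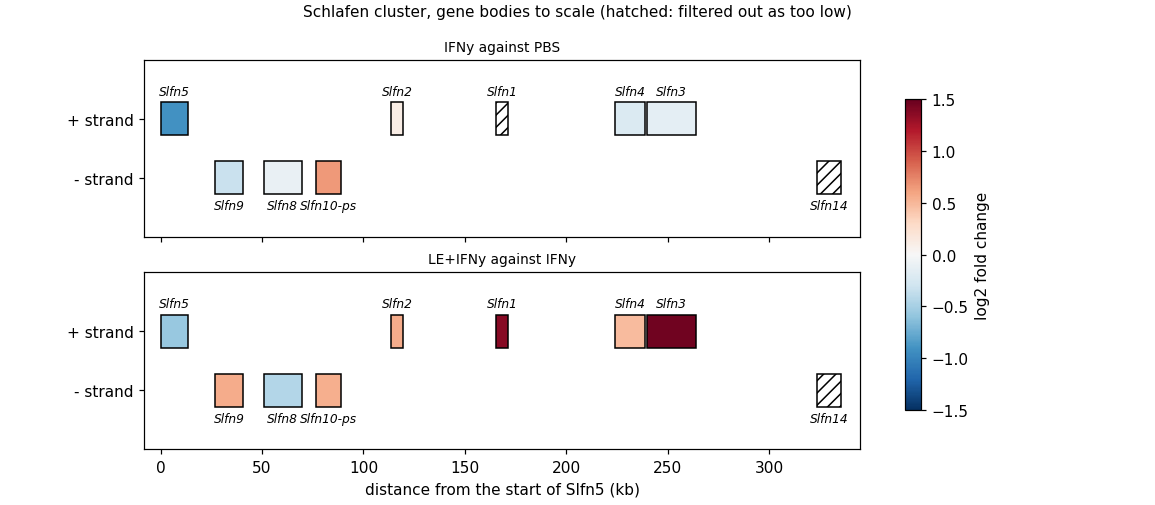
The genes of the Schlafen cluster drawn to scale by distance from the start of Slfn5 (kb) on either strand, coloured by the log2 fold change of IFN-γ against PBS (upper panel) and of LE+IFN-γ against IFN-γ (lower panel). Hatched genes were too low to be tested. Slfn5 was lower in both panels (-0.90 and -0.57), and Slfn1, Slfn2, Slfn4 and Slfn9 were higher in the lower panel.

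The promoter windows of the members, from RefSeq on GRCm38.p6, run from 250 bases before the start of the transcript to 50 bases after it, and 6 of 6 members had one. They are shown because the members did not move together. When LE or SE was added to IFN-γ, Slfn1, Slfn2 and Slfn4 rose and Slfn8 fell, and with LE Slfn9 rose and Slfn5 fell as well. Capitals mark matches to 2 motifs and, in 3 windows, a word that these windows share. The windows lie at chr11:83116570-83116869 (plus strand), chr11:83064862-83065161 (plus), chr11:83174936-83175235 (plus), chr11:82951852-82952151 (plus), chr11:83020761-83021060 (minus) and chr11:82991781-82992080 (minus), and each reads 5′ to 3′ on the strand of its gene.
Slfn1: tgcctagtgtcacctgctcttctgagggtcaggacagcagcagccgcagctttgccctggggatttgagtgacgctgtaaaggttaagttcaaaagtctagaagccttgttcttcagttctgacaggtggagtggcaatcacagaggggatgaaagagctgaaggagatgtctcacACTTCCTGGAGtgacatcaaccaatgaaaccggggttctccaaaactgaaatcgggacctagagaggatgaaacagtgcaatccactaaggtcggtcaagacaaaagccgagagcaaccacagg
Slfn2: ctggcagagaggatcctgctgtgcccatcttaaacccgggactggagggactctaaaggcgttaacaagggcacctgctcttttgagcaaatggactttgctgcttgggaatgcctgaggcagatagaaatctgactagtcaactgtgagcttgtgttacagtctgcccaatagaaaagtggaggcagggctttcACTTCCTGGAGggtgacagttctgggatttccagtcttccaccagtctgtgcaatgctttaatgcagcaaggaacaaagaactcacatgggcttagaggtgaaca
Slfn4: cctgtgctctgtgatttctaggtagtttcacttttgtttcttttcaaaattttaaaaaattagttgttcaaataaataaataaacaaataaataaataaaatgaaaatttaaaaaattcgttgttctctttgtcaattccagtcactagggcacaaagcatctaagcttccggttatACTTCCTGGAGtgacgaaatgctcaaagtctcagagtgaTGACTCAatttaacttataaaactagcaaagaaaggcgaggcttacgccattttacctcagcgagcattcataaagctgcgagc
Slfn5: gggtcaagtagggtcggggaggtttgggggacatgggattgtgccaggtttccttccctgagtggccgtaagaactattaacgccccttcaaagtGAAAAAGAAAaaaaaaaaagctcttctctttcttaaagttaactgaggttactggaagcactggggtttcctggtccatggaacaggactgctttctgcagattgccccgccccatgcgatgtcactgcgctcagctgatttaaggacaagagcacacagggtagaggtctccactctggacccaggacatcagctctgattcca
Slfn8: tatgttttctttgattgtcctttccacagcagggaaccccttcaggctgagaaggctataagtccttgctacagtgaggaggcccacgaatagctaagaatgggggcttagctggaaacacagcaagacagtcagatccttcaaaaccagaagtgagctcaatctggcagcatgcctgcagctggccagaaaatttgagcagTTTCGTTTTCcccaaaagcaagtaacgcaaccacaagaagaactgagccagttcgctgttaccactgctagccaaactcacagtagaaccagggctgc
Slfn9: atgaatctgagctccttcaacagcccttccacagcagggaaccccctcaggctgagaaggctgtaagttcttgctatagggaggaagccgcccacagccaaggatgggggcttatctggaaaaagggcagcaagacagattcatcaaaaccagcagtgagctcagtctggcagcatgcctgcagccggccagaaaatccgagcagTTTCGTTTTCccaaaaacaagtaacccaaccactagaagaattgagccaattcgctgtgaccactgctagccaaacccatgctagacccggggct

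The interferon-stimulated response element core, searched on both strands as GAAA, any 2 bases and GAAA, was in the windows of Slfn5, Slfn8 and Slfn9. It began 155 bases before the start in Slfn5 (as GAAAAAGAAA), 48 bases before it in Slfn8 and 45 bases before it in Slfn9, the last 2 with the same letters on the other strand (TTTCGTTTTC). These were 3 of 6 members, counted by gene, and 3.44% of all 32851 mouse windows held this core, counted by window. Slfn8 has another window (chr11:83020673-83020972, minus strand) that overlaps the one shown. There the same match begins 136 bases before the start. The AP-1 motif TGANTCA was in the window of Slfn4 alone, 34 bases before the start, and in 7.81% of all windows. The GAS (gamma-activated sequence) motif, searched as TTC, any 3 bases and GAA, was in 0 of 6 members and 8.3% of all windows, and the NF-κB motif, searched as GGG, any 2 bases and TTTCC, in 0 of 6 and 1.63%. The windows of Slfn1, Slfn2 and Slfn4 shared the 11-base word ACTTCCTGGAG, at 74, 55 and 73 bases before the start, and 24 of all 32851 windows (0.0731%) held it on either strand. In Slfn1 and Slfn4 the shared word ran on to 15 bases. Slfn8 and Slfn9, which moved in opposite directions with LE, shared a longer word of 20 bases, TCTGGCAGCATGCCTGCAGC, held by 3 of all windows. The 3 windows were those of Slfn8 and Slfn9 shown here and the other window of Slfn8. All of these words were chosen after the expression values were seen, and a match is a description of letters, not a site.

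The 6 members covered a wide range of levels. Per length, in RPKM (CPM per kilobase of exon), the median over the 24 libraries was 110 for Slfn2, 17.6 for Slfn4, 4.02 for Slfn5, 2.65 for Slfn8, 2.51 for Slfn9 and 0.124 for Slfn1. Slfn2 was thus the most abundant member in these cells. Slfn2 had at least 2881 reads in every library, whereas Slfn1 had at most 38. All levels that follow are in CPM, which compares 1 gene between libraries. Slfn8 was highest with PBS (13.3 ± 0.53 CPM) and lowest with LE+IFN-γ (8.88 ± 0.229 CPM), with LE+IFN-γ below every other group and PBS apart from IFN-γ, the next in the order, but overlapping PE. The groups between them overlapped their neighbours. Slfn4 and Slfn9 were highest with LE+IFN-γ, at 92.6 ± 2.82 and 19.2 ± 0.136 CPM, and each group overlapped the next in the order. Exact sequence stretches of the read length were rarely shared with other genes, from 0% of the stretches of Slfn1 and 0.128% of those of Slfn2 to 3.71% of those of Slfn9. For Slfn5 it was 6.4%, nearly all with Slfn5os, an antisense gene that overlaps it and had at most 2 counts in any letter-labelled library. Slfn8 and Slfn9 shared stretches with each other and with Slfn10-ps, and since only uniquely aligned reads were counted, part of the reads of these 3 genes may be missing.

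**Figure D2:**
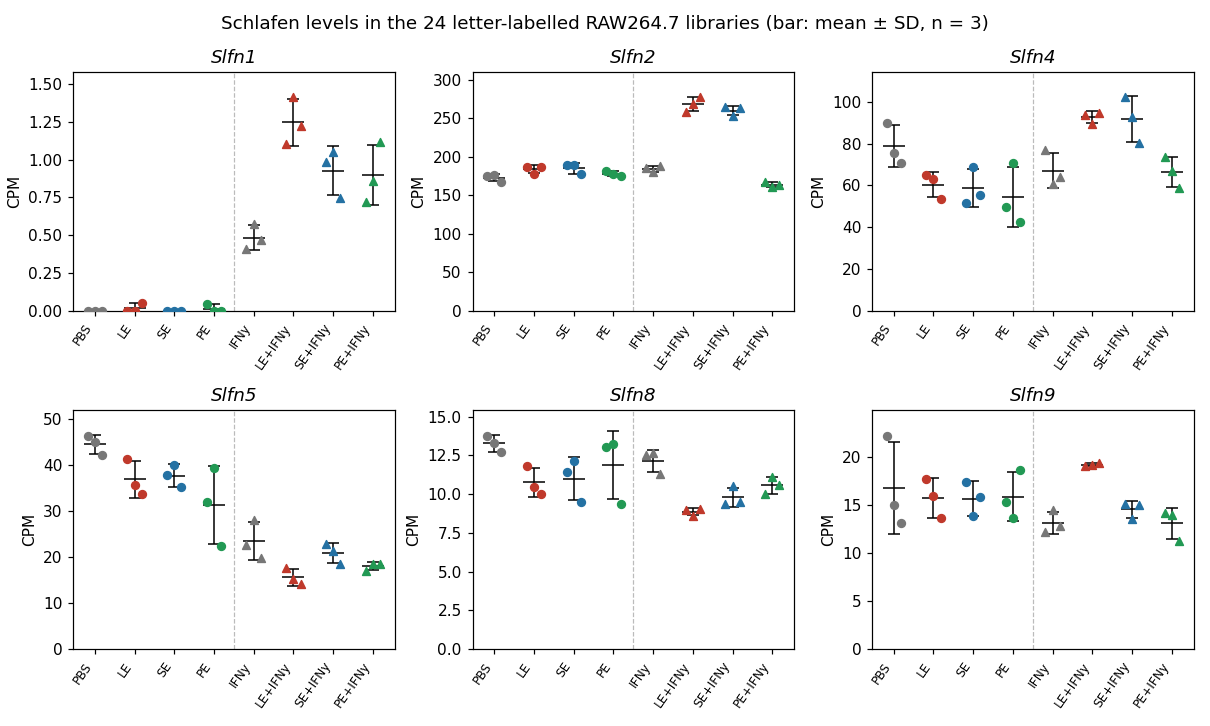
CPM of each member in the 24 letter-labelled libraries by group, with 1 point per library and the bar showing the mean ± SD (n = 3). Circles are libraries without IFN-γ and triangles libraries with it. Slfn1 was near 0 without IFN-γ, and Slfn2 was at 253 CPM or more in the 6 libraries of LE+IFN-γ and SE+IFN-γ and at 190 CPM or less in the other 18.

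IFN-γ alone was compared with PBS to see how the family responded to the cytokine. Slfn5 fell and Slfn1 came up from 0 counts. The other 4 members did not pass the test, although Slfn4 did once libraries of the same replicate number were paired and Slfn9 did with no filter on low counts. A gene was called when its edgeR adjusted p (Benjamini-Hochberg over all genes tested) was under 0.05 and its fold change over 1.5, and "rose" and "fell" are written below for an adjusted p under 0.05 at any fold. Of 5 members tested, 1 was called, against 18.1% of 12242 genes (39.7% at an adjusted p under 0.05 and any fold), and Slfn1 was too low to be tested.

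Slfn5, a long member that has been tied to restraint of cell growth, had 46.4, 45.0 and 42.3 CPM with PBS and 22.7, 28.02 and 19.8 CPM with IFN-γ. The groups did not overlap, and Slfn5 fell by 0.90 on the log2 scale (SE 0.116, adjusted p 8.87e-05). Slfn5 had its highest group mean with PBS, 44.6 ± 2.09 CPM (SD, n = 3), and its lowest with LE+IFN-γ, 15.6 ± 1.83 CPM. PBS stood above all other groups, and each other neighbour in that order overlapped the next.

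Slfn1 had 0 counts in the 3 PBS libraries and 10, 14 and 10 counts with IFN-γ. These were 0.410, 0.573 and 0.472 CPM. Against 3 counts per library, the limit that a count of 0 allows, IFN-γ was at least 3.6-fold higher. In the 12 libraries without IFN-γ, 10 had 0 counts, and 1 LE and 1 PE library had 1 count each. Every library with IFN-γ had at least 10 counts. These bounds cover counting error only.

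Slfn2 had 175, 176 and 167 CPM with PBS and 185, 180 and 188 CPM with IFN-γ. The 2 groups did not overlap, but the difference was small, at 0.11 on the log2 scale (95% interval -0.03 to 0.25, adjusted p 0.20). Slfn4 was at 78.8 ± 10.1 CPM with PBS and 67.1 ± 8.50 CPM with IFN-γ, a log2 fold change of -0.21 (-0.44 to 0.01, adjusted p 0.12). In these 2 groups the 3 pairs of the same replicate number deviated together (correlations 0.18 to 0.21), Slfn4 was lower with IFN-γ in each pair, and with the replicate block the value was -0.21 (edgeR adjusted p 0.025). Over the other alternatives on the letter-labelled libraries the adjusted p was 0.056 to 0.36. For Slfn8 it was -0.11 (-0.35 to 0.13, adjusted p 0.46).

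Slfn9 had 22.2, 15.0 and 13.2 CPM with PBS and 12.2, 14.4 and 12.8 CPM with IFN-γ. PBS replicate 1 stood far above the other PBS libraries. The log2 fold change was -0.34 (-0.71 to 0.04, adjusted p 0.14) and was -0.03 without replicate 1 of both groups (adjusted p 0.90). With no filter on low counts it was -0.34 and passed (edgeR adjusted p 0.043). Without replicate 1 Slfn1 also passed the filter on low counts and was called, so that 2 members were called, against 15.8% of all genes.

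The peptides were next compared with PBS in the absence of IFN-γ. Of 5 members tested, 0 were called by edgeR, whichever the peptide, against 0.0242%, 1.92% and 3.13% of 12420 genes. An unadjusted p under 0.05 was found for 2 members with LE, 2 with SE and 3 with PE, and DESeq2 also called 0. At an adjusted p under 0.05 and any fold, 0 members passed with LE, 1 rose with SE and 2 fell with PE, against 0.0242%, 14.3% and 20% of all genes in either direction. With no filter on low counts Slfn4 passed with LE (-0.34, edgeR adjusted p 0.018). All 3 comparisons share the PBS libraries.

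Slfn2 with SE was at 190, 189 and 177 CPM, each above the highest PBS library. This was a rise of 0.17 on the log2 scale (SE 0.0553, adjusted p 0.049), which no longer passed without replicate 1, 2 or 3 (adjusted p 0.36, 0.11 and 0.16). The value was 0.14 with LE (adjusted p 0.27) and 0.13 with PE (adjusted p 0.11), neither of which passed.

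Slfn5 fell with PE by 0.42 on the log2 scale (SE 0.134, adjusted p 0.039). Its PE libraries were spread widely, at 32.0, 39.5 and 22.5 CPM, although all lay below PBS. Slfn4 also fell with PE, by 0.45 (SE 0.145, adjusted p 0.043), with 49.9, 70.7 and 42.7 CPM. PE replicate 2 was the high library for both genes and PE replicate 3 the low one, and without replicate 2 of every group Slfn4 was called for PE at -0.68 (adjusted p 0.0092). Without replicate 1 or 3 neither gene passed (adjusted p 0.26 and 0.14 for Slfn5, 0.39 and 0.15 for Slfn4).

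In these comparisons the log2 fold change of all genes went with exon length, with a Spearman correlation across genes of -0.371 for LE, -0.439 for SE and -0.451 for PE. Long genes were lower with the peptides. Slfn5 has 6326 exonic bases, Slfn9 5965, Slfn8 4091, Slfn4 3964, Slfn1 1864 and Slfn2 1664. The part of length in the values of Slfn2, Slfn4 and Slfn5 was not tested.

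The study's Model A adds each peptide to IFN-γ and compares it with IFN-γ alone. With LE, 6 of 6 members passed the adjusted p threshold. Slfn1, Slfn2, Slfn4 and Slfn9 rose, and Slfn5 and Slfn8 fell. With SE, Slfn1, Slfn2 and Slfn4 rose and Slfn8 fell, and with PE 0 of 6 passed, although Slfn5 and Slfn2 passed under some alternatives. Among all 12720 genes 50.5% passed with LE, 33.4% with SE and 10% with PE. Past the 1.5-fold threshold too, 1 member was called with LE (15.5% of genes), 1 with SE (7.39%) and 0 with PE (0.629%), where 3 members had an unadjusted p under 0.05 by edgeR and DESeq2 also called 0. The member called with LE and with SE was Slfn1, which was too low to be tested for IFN-γ alone against PBS. It passed the filter on low counts here through the groups with a peptide, where it was higher, and no other member was called. The 3 comparisons share the IFN-γ libraries.

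**Figure D3:**
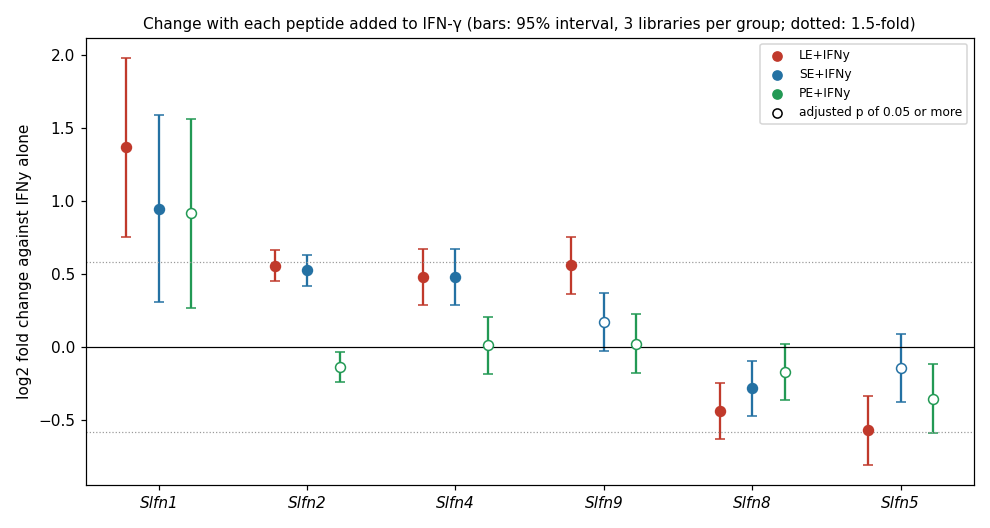
Log2 fold change of each member when LE, SE or PE was added to IFN-γ, against IFN-γ alone, with 95% intervals from the fit (3 libraries per group). Open points have an adjusted p of 0.05 or more, and dotted lines mark 1.5-fold. For Slfn2 and Slfn4 the points of LE and SE lie together near 0.5 and those of PE near or under 0.

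Slfn2, whose loss leaves T cells and monocytes unable to stay quiescent, was at 184 ± 4.06 CPM with IFN-γ. It had 258, 269 and 277 CPM with LE+IFN-γ, 264, 253 and 263 CPM with SE+IFN-γ, and 167, 161 and 163 CPM with PE+IFN-γ. The LE+IFN-γ and SE+IFN-γ libraries lay above, and the PE+IFN-γ libraries below, every library of the other groups except that PBS overlapped PE+IFN-γ. The log2 fold change was 0.56 with LE (SE 0.0492, adjusted p 6.44e-08), 0.52 with SE (SE 0.0493, adjusted p 2.98e-07) and -0.14 with PE (95% interval -0.24 to -0.04, adjusted p 0.076). The value with PE passed with library-total scaling (adjusted p 0.031) and DESeq2 (0.036), in a range of 0.031 to 0.38 over the alternatives on the letter-labelled libraries. The rises with LE and SE were just under the 1.5-fold threshold, and neither was called.

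Slfn1 had the largest fold change of the 6 members and the fewest reads. It had 29, 38 and 28 counts with LE+IFN-γ, 24, 24 and 19 with SE+IFN-γ and 16, 21 and 26 with PE+IFN-γ, against 10, 14 and 10 with IFN-γ. All 9 libraries with a peptide lay above the 3 without. The log2 fold change was 1.37 with LE (SE 0.291, adjusted p 0.00075), 0.95 with SE (SE 0.306, adjusted p 0.023) and 0.91 with PE (95% interval 0.27 to 1.56, adjusted p 0.065). The call with SE was lost without replicate 1, 2 or 3 (adjusted p 0.20, 0.099 and 0.059).

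Slfn4 had 76.8, 60.6 and 64.1 CPM with IFN-γ, 93.9, 89.4 and 94.6 CPM with LE+IFN-γ and 102, 92.9 and 80.4 CPM with SE+IFN-γ. Both groups lay above IFN-γ, with a log2 fold change of 0.48 with LE (adjusted p 0.0003) and 0.48 with SE (adjusted p 0.00061). With PE the libraries had 73.4, 67.0 and 58.9 CPM, which overlapped IFN-γ, and the log2 fold change was 0.01 (95% interval -0.18 to 0.21).

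Slfn9 was at 19.1, 19.1 and 19.3 CPM with LE+IFN-γ, above each of the other 9 libraries with IFN-γ. It rose by 0.56 on the log2 scale (SE 0.0928, adjusted p 7.32e-05). With SE the log2 fold change was 0.17 (95% interval -0.03 to 0.37, adjusted p 0.18) and with PE 0.02 (-0.18 to 0.22). Slfn8, its neighbour and close relative on the same strand, went the other way with LE. It had 12.5, 12.6 and 11.3 CPM with IFN-γ and 8.98, 8.62 and 9.04 CPM with LE+IFN-γ, a log2 fold change of -0.44 (SE 0.0914, adjusted p 0.00062), and with SE it fell by 0.28 (adjusted p 0.022), which no longer passed without replicate 1, 2 or 3 (adjusted p 0.22, 0.063 and 0.098). With PE the log2 fold change was -0.17 (95% interval -0.36 to 0.02, adjusted p 0.23).

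Slfn5 fell further when LE was added to IFN-γ. It had 17.7, 15.2 and 14.1 CPM with LE+IFN-γ, below each IFN-γ library, and the log2 fold change was -0.57 (SE 0.113, adjusted p 0.00039). With SE it was -0.14 (95% interval -0.38 to 0.09, adjusted p 0.35) and with PE -0.36 (-0.59 to -0.12, adjusted p 0.051). The value with PE passed with DESeq2, both other scalings, no filter and the replicate block (adjusted p 0.005 to 0.048) and not without a replicate or in 1 fit of 8 groups (0.10 to 0.28). The count of members called with LE depended on single replicates, and several members lay near 1.5-fold. It was 3 without replicate 1 (Slfn1, Slfn2 and Slfn5), against 16.1% of all genes. Without replicate 2 it was 2 (Slfn1 and Slfn9), against 14.4%, and without replicate 3 it was 2 (Slfn1 and Slfn5), against 13.4%. The Spearman correlation of the log2 fold change with exon length across genes was 0.213 with LE, -0.0567 with SE and -0.385 with PE, and its part in these values was not tested. Over the 8 macrophage markers the summed level was 6885 to 7558 CPM with IFN-γ, 8088 to 8891 CPM with LE+IFN-γ, 7671 to 7877 CPM with SE+IFN-γ and 6463 to 6717 CPM with PE+IFN-γ. For the 14 markers of other cell types it was 0.656 to 1.02, 1.745 to 2.14, 1.18 to 2.35 and 0.698 to 0.942 CPM, with Cd8a, Ms4a1, Epcam and Ly6g at 0 in every letter-labelled library, and the part of either list was not tested.

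Cells given IFN-γ with different peptides were also set side by side, in 3 pairs at the same dose and time. Across genes the log2 fold change went with exon length, and the part of length was not tested. The Spearman correlation was 0.354 for LE against SE, 0.348 for LE against PE and 0.210 for SE against PE. LE and SE differed at Slfn5 and Slfn9, 2 of 6 members, against 35.6% of genes at an adjusted p under 0.05. Slfn5 was lower with LE by 0.43 on the log2 scale (SE 0.113, adjusted p 0.0075), and Slfn9 was higher by 0.39 (SE 0.0917, adjusted p 0.0037). The intervals of Slfn2 (0.03, 95% interval -0.07 to 0.14) and Slfn4 (0.0016, -0.19 to 0.19) were narrow and held 0. For Slfn1 the interval was wide (0.42, -0.12 to 0.97), and for Slfn8 it ran from -0.35 to 0.04. By edgeR 0 members were called, against 4.93% of genes, and 2 had an unadjusted p under 0.05, with 0 called by DESeq2.

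LE and PE differed at 4 of 6 members, against 59.9% of genes. Slfn2 was higher with LE by 0.70 (SE 0.0494, adjusted p 4.3e-09) and was the 1 member called, against 21.6% of genes. Slfn4 was higher by 0.47 (adjusted p 0.00028) and Slfn9 by 0.54 (adjusted p 7.93e-05), and Slfn8 was lower by 0.27 (adjusted p 0.019). For Slfn1 the log2 difference was 0.45 (95% interval -0.10 to 1.00) and for Slfn5 -0.22 (-0.46 to 0.03). Without replicate 1, Slfn9 was called as well, at 0.60.

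SE and PE differed at 2 of 6 members, against 34.4% of genes. Slfn2 was higher with SE by 0.66 (SE 0.0494, adjusted p 2.33e-08) and was called, against 7.59% of genes, and Slfn4 was higher by 0.47 (adjusted p 0.00077). The intervals of the other members held 0. They were -0.55 to 0.61 for Slfn1, -0.03 to 0.45 for Slfn5, -0.31 to 0.08 for Slfn8 and -0.05 to 0.35 for Slfn9. Summed over the 6 members, the level was 406 ± 8.46 CPM with LE+IFN-γ, 398 ± 14.6 CPM with SE+IFN-γ, 301 ± 7.75 CPM with IFN-γ and 273 ± 9.56 CPM with PE+IFN-γ, and most of it came from Slfn2.

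The study's Model B asks what IFN-γ changed in cells that had the same peptide. With LE, Slfn1, Slfn2 and Slfn4 rose and Slfn5 and Slfn8 fell. With SE, Slfn1, Slfn2 and Slfn4 rose and Slfn5 fell. With PE, Slfn1 rose, while Slfn2, Slfn5 and Slfn9 fell. These were 5, 4 and 4 of 6 members, against 65.9%, 57.5% and 49.9% of 12947 genes. The members called were 3 with LE, 3 with SE and 2 with PE, against 35.1%, 26.3% and 21% of genes. Slfn1 is in all of these counts. It was near 0 without IFN-γ and passed the filter on low counts only through the groups with IFN-γ. Apart from Slfn1, Slfn4 and Slfn5 were called with LE and with SE, and Slfn5 with PE. Across genes the Spearman correlation of the log2 fold change with exon length was 0.221 with LE, 0.166 with SE and 0.0788 with PE. The part of length in these comparisons was not tested.

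**Figure D4:**
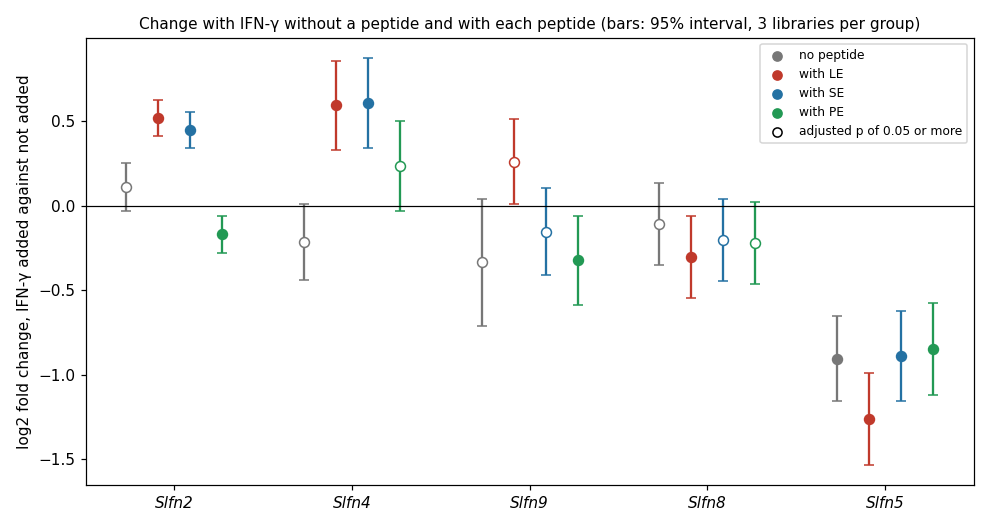
Log2 fold change with IFN-γ for cells with no peptide and with LE, SE or PE, with 95% intervals (3 libraries per group). Open points have an adjusted p of 0.05 or more. Slfn1 is left out because it had 0 or 1 counts in the libraries without IFN-γ. Slfn5 lies below 0 in all 4 conditions, and Slfn2 lies above 0 with LE and SE and below it with PE.

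Slfn5 fell with IFN-γ in every condition. The log2 fold change was -1.26 with LE (SE 0.131, adjusted p 4.16e-08), -0.89 with SE (SE 0.129, adjusted p 5.63e-06) and -0.85 with PE (SE 0.131, adjusted p 1.68e-05), beside -0.90 without a peptide. Slfn2 rose by 0.52 with LE (SE 0.0509, adjusted p 1.78e-08) and by 0.45 with SE (adjusted p 2.34e-07) and fell by 0.17 with PE (adjusted p 0.0088). Slfn2 had 187, 177 and 187 CPM with LE, 190, 189 and 177 CPM with SE and 181, 178 and 175 CPM with PE, so the groups without IFN-γ overlapped.

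Slfn4 rose by 0.59 with LE (SE 0.127, adjusted p 0.00035) and by 0.61 with SE (SE 0.127, adjusted p 0.00037), both called. With PE the log2 fold change was 0.23 (95% interval -0.03 to 0.50, adjusted p 0.14). The call with LE was lost without replicate 3 (0.50) and the call with SE without replicate 1 (0.45), each still past the adjusted p. Slfn8 fell with LE by 0.30 (adjusted p 0.028), and Slfn9 fell with PE by 0.32 (adjusted p 0.037). With LE, Slfn9 had a log2 fold change of 0.26 (95% interval 0.01 to 0.51, adjusted p 0.066).

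Slfn1 was called in all 3 comparisons. The counts over 3 libraries were 95 with LE+IFN-γ and 1 with LE, a ratio of CPM of 78.5 (95% counting interval 13.8 to 3133). They were 63 with PE+IFN-γ and 1 with PE, a ratio of 55.02 (9.52 to 2207). With SE+IFN-γ they were 67, against 0 with SE, which was at least 6.28-fold higher against 3 counts per library.

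Whether a peptide changed the response to IFN-γ was tested as an interaction across all 8 groups. The interaction is the log2 fold change with IFN-γ in cells with the peptide minus that in cells without one. For Slfn4 it was 0.81 with LE (SE 0.181, adjusted p 0.0012) and 0.83 with SE (SE 0.182, adjusted p 0.0023), both called. For Slfn2 it was 0.41 with LE (SE 0.0701, adjusted p 7.8e-05) and 0.34 with SE (SE 0.0702, adjusted p 0.0012), and for Slfn9 it was 0.60 with LE (SE 0.211, adjusted p 0.028), called.

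The members called were thus 2 with LE and 1 with SE, against 18.9% and 7.96% of 13096 genes (38.5% and 19.8% at an adjusted p under 0.05 and any fold, passed by 3 and 2 members). With PE 0 members and 0 genes were called by edgeR, 2 members and 1073 genes had an unadjusted p under 0.05, and DESeq2 called 0 members. The 2 were Slfn2 (-0.29, 95% interval -0.43 to -0.14, edgeR adjusted p 0.42) and Slfn4 (0.44, 0.07 to 0.82, adjusted p 0.58). For Slfn1 the intervals were wide with LE (-0.60, -1.94 to 0.75) and PE (-1.11, -3.27 to 1.04). With SE its counts of 0 left no usable interval. The interaction of Slfn5 was -0.36 with LE (95% interval -0.74 to 0.02), 0.02 with SE (-0.36 to 0.40) and 0.05 with PE (-0.33 to 0.43). That of Slfn8 lay between -0.19 and -0.09, with intervals that held 0. Without replicate 1 the interaction of Slfn9 with LE was 0.39 (adjusted p 0.24) and that of Slfn4 with SE 0.66 (adjusted p 0.08), and neither was called. The high PBS library of Slfn9 and Slfn4 (22.2 and 90.0 CPM) has this number. Across genes the interaction went with exon length (Spearman correlation 0.308 with LE, 0.264 with SE and 0.239 with PE), and the part of length was not tested.

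Of the other Schlafen genes, Slfn3 and Slfn10-ps were high enough to be tested. Slfn3, the neighbour of Slfn4, had 9.97, 9.21 and 10.8 CPM with LE+IFN-γ and at most 6.10 CPM in every other library. It rose with LE against IFN-γ by 1.46 (SE 0.186, adjusted p 4.57e-06), was higher with LE than with SE by 0.98 (adjusted p 0.00057) and had an interaction of 1.80 with LE (adjusted p 8.26e-05). Slfn10-ps had 25.5, 18.4 and 23.7 CPM with IFN-γ and 14.4, 13.8 and 15.3 CPM with PBS. It rose with IFN-γ by 0.65 (SE 0.127, adjusted p 0.0017) and Slfn8 and Slfn9 beside it did not pass. Its log2 fold change with IFN-γ was 1.41 in LE cells, 1.42 in SE cells and 0.68 in PE cells. With SE alone it fell against PBS by 0.56 (edgeR adjusted p 0.042). Slfn14 had 0 to 9 counts and Slfnl1, on chromosome 4, 0 to 2 counts.

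Genes on either side of the cluster were counted from a list of 13, of which 9 were tested. With IFN-γ alone 2 rose past 1.5-fold (the chemokine gene Ccl5 by 2.43 and the metalloproteinase gene Mmp28 by 1.19) and 1 fell (Rffl, a ubiquitin ligase gene, by 1.26). With LE added, Ccl5 rose by 1.97 and Mmp28 fell by 1.73. Lig3, Rad51d, Nle1, Ap2b1 and Taf15 lay within 1.5-fold in both comparisons, and Taf15 was the furthest of these from 0, at 0.54 and -0.42. The median log2 fold change of the 9 was 0.09 and -0.12 in these 2 comparisons, beside -0.21 and 0.52 over the members tested and -0.0087 and -0.010 over all genes. The members tested were 5 and 6, since Slfn1 was tested only with LE added. Of all genes, 9.79% rose and 8.28% fell past 1.5-fold with IFN-γ, and 9.58% rose and 5.93% fell with LE added, and the lists that follow are set beside these shares.

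Interferon signalling genes are the route by which IFN-γ reaches its targets. Of 18, 7 rose past 1.5-fold with IFN-γ, among them the transcription factor gene Irf1 (2.84) and the feedback inhibitor gene Socs1 (2.37), and 1 fell (the receptor gene Ifngr2, -0.64). With LE added 3 rose, led by Irf7 (1.02) and Socs3 (0.83), and 1 fell (Socs1, -0.73). The median over the 18 was 0.55 with IFN-γ and 0.16 with LE added. All 20 IFN-γ targets of the label check rose with IFN-γ, and 7 of them rose further with LE.

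Antiviral genes that act on RNA share the field of the Schlafen proteins. Of 22, 8 rose past 1.5-fold with IFN-γ, led by Ifit3 (2.77) and Oasl2 (2.71), and 3 fell, led by Oas2 (-1.34) and the RNA sensor gene Ddx58 (-0.79). With LE added 3 rose, led by Rsad2 (1.77) and Ifit1 (1.103), and 2 fell, among them Oas1g by 0.79. The median over the 22 was 0.17 with IFN-γ and 0.10 with LE added. The list of tRNA cleavage, protection and repair holds Ang, whose cuts Slfn2 is known to counter. Of 13 tested of 15, 1 rose with IFN-γ (Rnaset2a, 0.92) and 2 fell with LE added (Cnp, -0.70, and Rnaset2a, -0.64), and the medians were 0.09 and -0.11.

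Of 18 genes of cell cycle entry and quiescence, 2 rose with IFN-γ (Ccnd2, 3.05, and Myc, 1.72) and 2 fell (Ccne2, -1.59, and Cdkn1b, -0.64). With LE added 7 rose past 1.5-fold, led by Myc (2.49), which drives growth, and Ccne2 (1.90), a cyclin of S phase entry. Of 9 NF-κB subunits and inhibitors, 1 rose with IFN-γ (Nfkbib, 0.86) and 3 fell, led by Nfkbie (-0.98) and Nfkbia (-0.95). With LE added 2 rose (Tnfaip3, 1.52, and Rel, 0.81). The members' medians were -0.21 with IFN-γ (without Slfn1) and 0.52 with LE added (with Slfn1). They stand beside medians of -0.17 and 0.06 for the cell cycle genes and -0.12 and 0.15 for the NF-κB genes. Of 7 macrophage markers tested, 2 rose past 1.5-fold with IFN-γ and 2 with LE added, and 0 fell past it. The median over the 7 was -0.35 with IFN-γ and 0.24 with LE added. The summed level of all 8 was 9258 to 10188.5 CPM with PBS and 6885 to 7558 CPM with IFN-γ. Of the other cell types 1 marker could be tested in these 2 comparisons, Pdgfra. It rose by 1.51 with LE added and had at most 1.84 CPM in any letter-labelled library. With SE added to IFN-γ, where 7.39% of all genes were called, 1 interferon signalling gene rose and 1 fell, 6 antiviral genes rose and 1 fell, 3 cell cycle genes rose and 1 fell, and 2 NF-κB genes rose, all past 1.5-fold.

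Genes outside the family with the most similar pattern were found by Pearson's correlation of the mean log2 CPM over the 8 groups, among 8613 genes of at least 10 CPM. For Slfn2 they were Por, which feeds electrons to cytochromes P450 (0.982), the growth factor gene Vegfc (0.974) and Bhlhe40 (0.966), and for Slfn4 they were Prosc (0.981), Rprd1a (0.979) and Ube2d3 (0.978). For Slfn5 they were Rras2 (0.986), Ggcx (0.983) and Cdc42 (0.983). For Slfn8 they were Pdha1 (0.964), Snapin (0.959) and Ccdc127 (0.957), and for Slfn9 Fam111a (0.986), Rab9 (0.980) and Pbk (0.976). No gene was the closest for more than 1 member. The 8 points come from the same libraries, and the values describe these groups only.

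The HLA-labelled libraries gave other levels under the same labels. Slfn5 lay between 22.9 and 49.1 CPM in those labelled LE and between 79.8 and 88.5 CPM in those labelled IFNy, the reverse of the order in the letter-labelled libraries. Those labelled LE were among the libraries whose IFN-γ targets were high against the label, and those labelled IFNy among the ones where they were low. Slfn2 lay between 249.8 and 281 CPM with the label LE, between 221 and 252 CPM with the label PE and between 113 and 154 CPM with the 6 other labels. Slfn4 was higher in the 6 HLA-labelled libraries labelled LE or PE than with any other label, at 170 to 336 CPM against 98.7 to 157 CPM. Slfn1 reached 28 counts with the label LE and at most 2 counts with SE+IFNy.

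**Figure D5:**
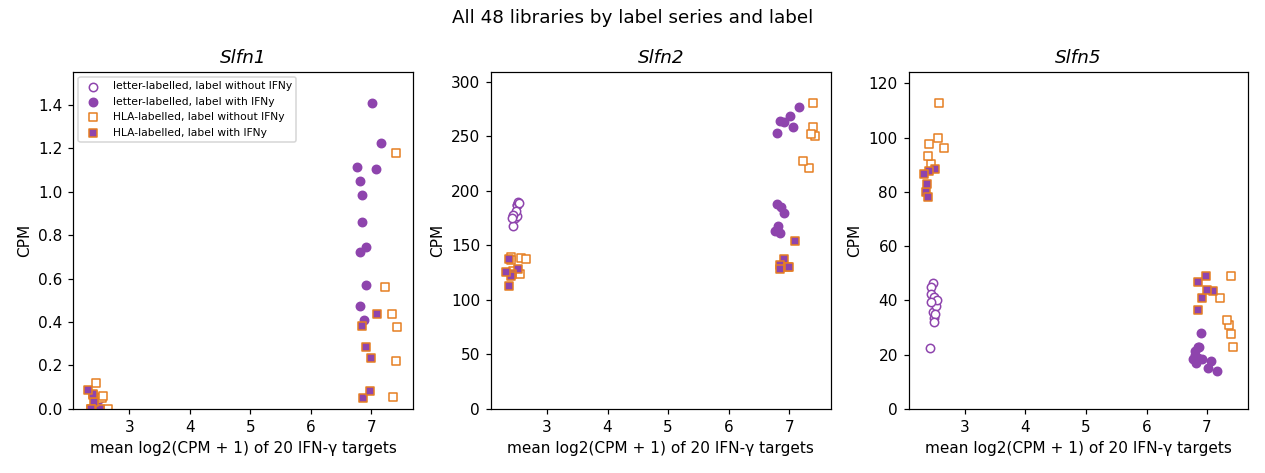
CPM of Slfn1, Slfn2 and Slfn5 in all 48 libraries against the mean log2(CPM + 1) of 20 IFN-γ targets, with circles for letter-labelled and squares for HLA-labelled libraries and filled marks for labels with IFN-γ. Open squares on the right and filled squares on the left are the 12 HLA-labelled libraries that go against their label. Among the squares, Slfn5 lies at 49.1 CPM or less on the right and at 78.2 CPM or more on the left.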

How the data were processed

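Polyadenylated RNA of RAW264.7 cells was sequenced in 48 libraries, 8 groups of 6. The deposited file is 1 table of whole-number counts, a row per gene, without normalization. By the study's methods, stranded libraries were read single-ended over 100 bases, and uniquely aligned reads were counted with featureCounts on GENCODE M12 (GRCm38.p5). The aligner and the strand setting of the counting are not given in the sources used here. Their own tests used DESeq2 1.16.1 under R 3.4.1 and are not used here. Columns were matched to samples by name and groups to the labels, and the letter-labelled libraries were used. Names like dates (26) and repeated names (4 lines) were kept in totals. Between any 2 of the 48 libraries the counts differed by a chi-square of at least 3.89 per degree of freedom, so none was taken as a repeat of another.

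Counts were tested with edgeR 4.0.16 (quasi-likelihood F test, TMM, filterByExpr, R 4.3.3) in fits of the groups compared, and the interaction in a fit of 8 groups. The test was checked on simulated counts for LE+IFN-γ against IFN-γ only. That check did not cover the interactions, the replicate block or changes in genes with as few counts as Slfn1. The study gives 6 biological replicates in 2 independent experiments for its RAW264.7 data. RPKM used exon lengths of GENCODE M21 (GRCm38). Alternatives were median-ratio and library-total scaling, DESeq2 1.42.0, no filter, a replicate block, leaving out replicates, 1 fit of 8 groups and both label series. Named genes were the members, the other Schlafen genes, the 3 most similar genes per member, the flanking genes that were tested and up to 2 called genes per list and direction. The members, gene lists and motifs were chosen with earlier results of these data known. Some genes of the lists enter the counts and are not reported here by name.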

Additional observations from a re-analysis of the deposited data

Results flagged for a closer look

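The change with IFN-γ differed between cells with and without a peptide for 3 of 6 members with LE and 2 with SE, by the interaction test in edgeR, beside 38.5% and 19.8% of all 13096 genes at the same threshold. With LE the log2 interaction was 0.81 for Slfn4 (adjusted p 0.0012), 0.60 for Slfn9 (adjusted p 0.028) and 0.41 for Slfn2 (adjusted p 7.8e-05). With SE it was 0.83 for Slfn4 (adjusted p 0.0023) and 0.34 for Slfn2 (adjusted p 0.0012). The 3 LE+IFN-γ libraries of each of these genes lay above the 3 IFN-γ libraries. Across genes the interaction had a Spearman correlation with exon length of 0.308 with LE and 0.264 with SE. The part of exon length in these values was not tested. For Slfn4 and Slfn9, PBS replicate 1 was the highest PBS library, and the interaction of Slfn9 with LE was 0.39 without replicate 1 (adjusted p 0.24). Without it that of Slfn4 with SE was 0.66 (adjusted p 0.08) and that of Slfn2 with SE 0.35 (adjusted p 0.051), and neither passed.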

How the results depend on the processing

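Member values past the adjusted p threshold in the letter-labelled libraries (40) kept their direction in 355 of 355 alternative values on those libraries, and 13 of the 40 no longer passed under at least 1 of them (12 when a replicate was left out, 8 under another alternative). Of 52 values not past it, 14 changed sign, 12 passed it and 0 were called, each under some alternative on the letter-labelled libraries, and 2 were called with both label series. With both label series, 33 of 40 kept their direction. The others were, for LE+IFN-γ against LE, Slfn2 -0.28 and Slfn4 -0.20, for the LE interaction Slfn2 -0.33, Slfn4 -0.14 and Slfn9 -0.18, for PE against PBS Slfn4 0.059, and for LE+IFN-γ against SE+IFN-γ Slfn9 -0.035. That fit includes 12 libraries that go against their label, and the cause was not tested. It called 0 members for IFN-γ against PBS (0.31% of all genes), SE+IFN-γ against IFN-γ (0.0501%) and the interactions with LE (0.00686%) and SE (0%). It also called 0 for LE+IFN-γ (2.68%) and SE+IFN-γ (3.14%) against PE+IFN-γ. In Model B it called 0 with LE (4.63%), SE (0.0279%) and PE (6.15%). It called 2 for LE against PBS (8.14% of all genes), 1 for PE against PBS (6.76%), 2 for LE+IFN-γ against IFN-γ (7.51%) and 1 for LE+IFN-γ against SE+IFN-γ (3.6%).

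IFN-γ against PBS gave 2 members with no filter (11.4% of all genes) and 2 in 1 fit of 8 groups (18.5%), where Slfn1 was tested. LE+IFN-γ against IFN-γ gave 2 (15.5% of all genes) with library-total scaling, which was chosen after seeing the data. SE+IFN-γ against IFN-γ gave 0 with DESeq2 (6.95% of all genes) and 0 in 1 fit of 8 groups (6.6%). Leaving out 1 replicate number gave 1 to 2 members for IFN-γ against PBS (15.8% to 17.2% of all genes). It gave 0 to 1 for PE against PBS (0% to 8.21%). Against IFN-γ it gave 2 to 3 for LE+IFN-γ (13.4% to 16.1%) and 0 to 0 for SE+IFN-γ (5.79% to 7.33%). For LE+IFN-γ against PE+IFN-γ it gave 1 to 2 (16.7% to 23.7%). In the interactions it gave 1 to 2 with LE (15.2% to 17.8%) and 0 to 1 with SE (4.21% to 9.07%). Over all genes, SE against PBS gave 239 calls, 3 without replicate 1, 419 without replicate 2 and 17 without replicate 3. PE against PBS gave 389, then 0, 1021 and 60, and PE+IFN-γ against IFN-γ 80, then 4, 250 and 9.

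Libraries of the same number deviated together only weakly, with correlations from -0.30 to 0.46 (median 0.084, 40 of 84 over 0.1), and 15 of 24 libraries were closest to their own number. All 3 pairs were over 0.1 for IFN-γ with PBS and for LE+IFN-γ with IFN-γ, among the groups compared. The replicate block gave 1 member for IFN-γ against PBS (18.1% of all genes) and 1 for LE+IFN-γ against IFN-γ (15.5%). It gave 3 for LE+IFN-γ against LE (35.3%) and 2 for the LE interaction (19.3%). The member counts were the same without the block. At any fold the block brought Slfn4 past the adjusted p for IFN-γ against PBS and for SE against PBS (-0.36, adjusted p 0.027) and Slfn5 for PE+IFN-γ against IFN-γ (-0.35, adjusted p 0.037), and it lost no value. The depth limits Slfn1, whose 38 counts at most leave wide intervals.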
